A study of Homo sapiens with 8 samples.

Results

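The regions described here are 205 short stretches of human autosomal DNA in which 6 successive CpGs are spaced by the gaps 4-26-40-10-4 or 25-4-10-26-4 bp, read in either direction along the chromosome. They hold 1230 of the 3086582 autosomal CpGs listed in any library. The 2 spacings were chosen in earlier work on these data because methylation at runs with them stayed high late in the course, so the contrast of late with early days describes that choice and is given without a test. The first spacing, 4-26-40-10-4, spans 84 bp and was found at 169 loci, 85 of them with the gaps in chromosome order as written and 84 with the gaps reversed. The second spacing, 25-4-10-26-4, spans 69 bp and was found at 36 loci, 15 as written and 21 reversed. No 2 runs overlapped, so each run is 1 locus.

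The cells are HUES64, a human embryonic stem cell line in long use, with the genotype given as a DNMT1 knockout. DNMT1* is, from knowledge of the study and not from the labels, a repressible copy of the enzyme that keeps the knockout cells alive, and the libraries follow its withdrawal from day 0 to day 7. CpG methylation was read by reduced representation bisulfite sequencing (RRBS), which samples CpGs near MspI cut sites, in 1 library per day. All 8 libraries share the knockout, day 0 is the only state before withdrawal, and there is neither a repeat of the course nor a parallel line with intact DNMT1.

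DNMT1 recognises CpGs that carry methylation on the old strand only after DNA replication and copies it onto the new strand. Without it, each round of replication dilutes the methyl groups already present, while the de novo methyltransferases DNMT3A and DNMT3B, which embryonic stem cells express, can still add some. Dispersed repeats are copies of one ancestral sequence, so copies of one family can be recognised by a shared order of distances between CpGs, as bar codes are. In embryonic stem cells many such repeats are densely methylated and carry marks of silent chromatin.

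Depth limits what single loci can show. The 5 deep libraries (days 0, 1, 2, 6 and 7) held 77691782 to 161534152 CpG read calls and the 3 shallow ones (days 3, 4 and 5) 12359218 to 15156251. Reads of a locus are summed over its 6 CpGs, so 1 read that covers several of them counts at each. Among the 195 loci with at least 10 reads in every library, the median was 309 reads on day 0 and 24 on day 5. The other 10 loci fell short on a shallow day. Their pooled reads were 89.5% methylated on day 0 and 22.9% on day 7. Member CpGs were read as often as other autosomal CpGs, with a median of 43 reads on day 0 against 44 and of 40 reads on day 7 against 38.

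The loci share more than the rule asked for. They lay on all 22 autosomes, from 3 loci on chromosome 18 to 21 on chromosome 1, and the closest pair was 13903 bp apart, with a median distance of 8166789 bp between neighbours. Around the first spacing the next CpG gaps recurred from locus to locus. Going outward from place 6, the sixth CpG in the direction in which the gaps are written, the commonest gaps were 7 bp at 146 of 169 loci, then 18 bp at 128 and 14 bp at 110. Going outward from place 1, they were 4 bp at 127 loci, 6 bp at 121 and 94 bp at 81. Of the first 8 flanking gaps of this kind, 3 before and 5 after the run, 55 of the 160 loci with reads enough had all 8, 55 had 5 to 7 and 50 had at most 4.

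The 2 spacings also line up with each other. Read backwards, the second spacing is 4-26-10-4-25. It becomes the first one when a gap of 40 bp is put in after the 26 bp gap and when the 7 and 18 bp gaps that follow the first spacing, found together at 128 loci, are joined into 25 bp. The next gap on that side was 14 bp at 23 of the 36 loci, the gap that also follows 7 and 18 in the first spacing. On the other side the next gap was 10 bp at 25 of the 36 loci, which is the sum of the 4 and 6 bp gaps found together before 121 loci of the first spacing. None of the 35116 promoter windows of 300 bases in RefSeq's GRCh38 table holds either order of CpG gaps, and that says nothing of DNA outside those windows.

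Methylation at the family fell on every day but less far than at other runs of like length. Over the 195 loci, each weighted equally, the mean levels of days 0 to 7 were 88.3%, 84.6%, 77.4%, 59.9%, 43.5%, 35.8%, 28.2% and 23.1%. The SD over loci was 2.98 points on day 0 and 3.52 on day 7, and between 12.4 and 14.9 points on the shallow days 3 to 5, when a locus rested on about 24 reads. Over reads, 13283 of 57647 were methylated on day 7, or 23.04% with a Wilson 95% interval of 22.7 to 23.4%, which covers counting error only. Day 7 kept 26.1% of the day 0 level.

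As comparison runs served all runs of 6 successive autosomal CpGs with the same total span, 84 or 69 bp, that held no member, stood at 80% or more over days 0 and 1 and had the same 10 reads in every library. There were 4731 of them, and they may overlap each other. Their mean levels over the same 8 days were 87.1%, 83.6%, 74.96%, 54.9%, 39.3%, 31.5%, 22.5% and 18.3%, so that 20.98% of the start was left. The family thus began 1.19 points higher than the comparison runs and ended 4.78 points higher.

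The gap did not widen evenly. In points, the family stood above the comparison runs by 1.19, 1.09, 2.39, 5.03, 4.11, 4.38, 5.72 and 4.78 from day 0 to day 7, so that the widest opening came between days 2 and 3 and the gap narrowed from day 3 to 4 and from day 6 to 7. The ratio of the family to the comparison runs was 1.01 on each of days 0 and 1 and then 1.03, 1.09, 1.10, 1.14, 1.25 and 1.26 through day 7. From day 0 to day 1 both kept 95.8 to 95.9% of their level. Between days 5 and 6 the family kept 78.7% of its level and the comparison runs 71.4%, the widest difference in share kept of any interval, and from day 6 to day 7 they kept 81.8% and 81.4%. Day 5 is a shallow and day 6 a deep library, and their part in that step was not tested. Only 4 of the 205 loci stood below 80% over days 0 and 1, and the 191 loci at 80% or more with reads enough gave the same day 7 mean, 23.1%.

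**Figure D1:**
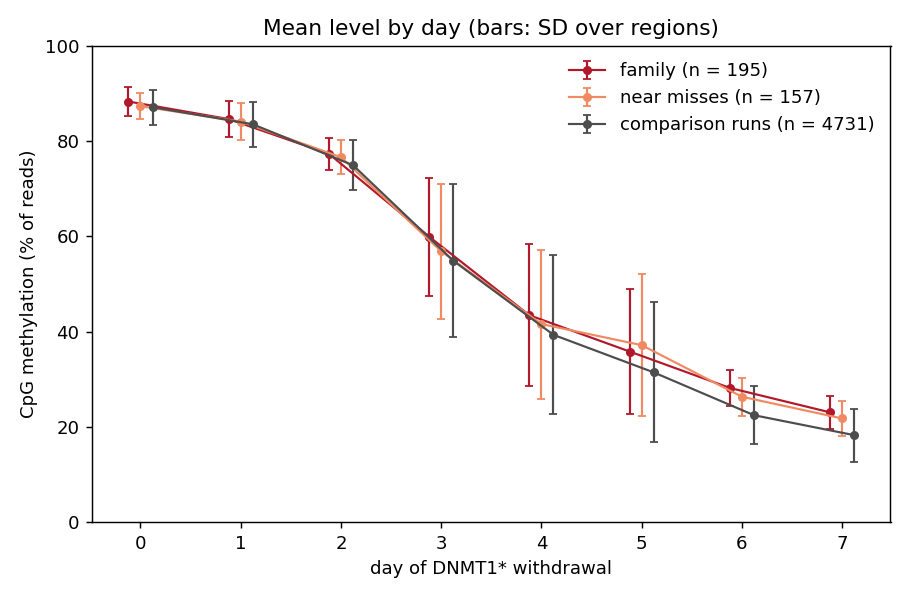
Mean CpG methylation (% of reads, vertical axis) on each day of DNMT1* withdrawal (horizontal axis) for the 195 family loci, the 157 near-miss runs and the 4731 comparison runs, with bars giving the SD over regions and points set slightly apart. The 3 courses start together, and on day 7 the family stands at 23.1% against 18.3% in the comparison runs, with wide bars on the shallow days 3 to 5.

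As a single exponential decline the family lost 18.8% of its level per day, a slope of -0.209 ± 0.014 on the natural log scale (SE, n = 8 libraries), which takes 3.32 days for a fall to 50%. The comparison runs lost 21.6% per day, a slope of -0.243 ± 0.017, and took 2.85 days. In the 5 deep libraries alone the 2 slopes were -0.207 ± 0.019 and -0.244 ± 0.023. The SEs describe the scatter of libraries around a straight line within a single course.

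Both spacings were chosen for their late level, so the likeness of their courses is a description. The first went from 88.6% on day 0 to 23.1% on day 7 over 160 loci, and the second from 86.9% to 23.1% over 35 loci. Their log slopes were -0.209 ± 0.014 and -0.209 ± 0.017 per day. Their difference was 0.00018 ± 0.0056 per day, with an interval of -0.0111 to 0.0114 at 2 SE. The first spacing was the higher of the 2 on 6 of 8 days. Loci with the gaps as written and loci with them reversed ended near each other, with 23.6% and 22.6% on day 7 for the first spacing and 22.6% and 23.4% for the second.

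The higher late level was a shift of nearly the whole family and not the work of a few loci. Both spacings were chosen for that level, so the counts that follow are a description. Over the pooled reads of days 6 and 7, the loci kept a median of 29.4% of their level of days 0 and 1, with a middle range of 27.3 to 31.6% and extremes of 18.05 and 38.4%. The comparison runs kept a median of 23.5%, with a middle range of 19.6 to 27.2% and extremes of 5.52 and 50.7%. Of the 195 loci, 188 lay above the median of the comparison runs, a limit that by construction 50% of those runs pass. At 1.5 times that median, or 35.2%, the picture was different: 5 of the 195 loci (2.56%) passed, against 3.36% of the comparison runs, and 0 loci against 0.148% reached 2 times the median. Among loci with at least 20 reads in every library, 3 of 75 (4%) passed 1.5 times the median, against 3.87% of the comparison runs. On days 3 to 5 the loci kept a median of 54.6% and the comparison runs 49.0%, and 140 of the 195 loci lay above the latter, where 50% of the comparison runs do. At 1.5 times that median stood 1 of the 195 loci, against 1.71% of the comparison runs.

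**Figure D2:**
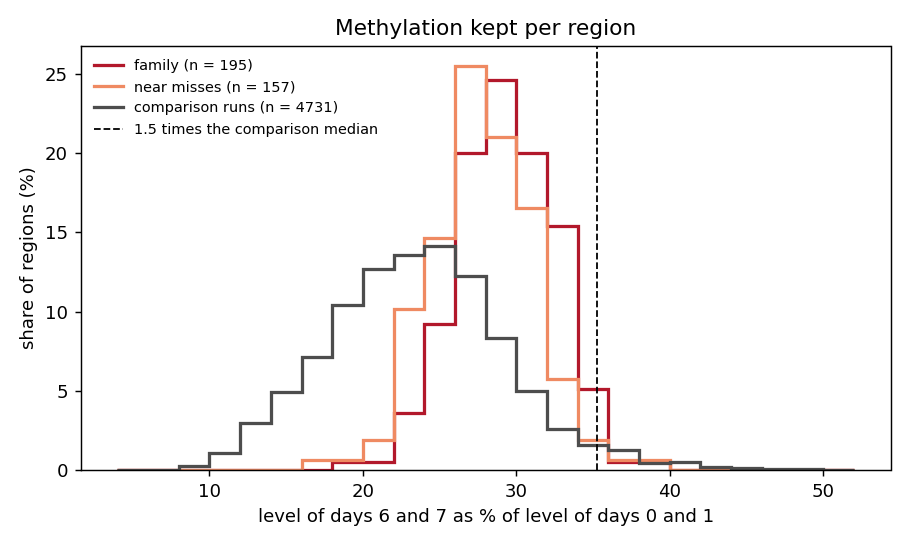
Share of regions (%, vertical axis) by the level over days 6 and 7 as a percentage of the level over days 0 and 1 (horizontal axis, steps of 2 points), for the family, the near misses and the comparison runs, each with at least 10 reads in every library. The family forms a narrow peak around its median of 29.4%, to the right of the broad comparison distribution around 23.5%, and few of its loci pass the dashed line at 1.5 times the comparison median.

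Loci differed little among themselves. The SD of the level over days 6 and 7 was 2.76 points among the 195 loci and 5.31 among the comparison runs. The Pearson dispersion of locus levels, which would be 1 with independent reads and 1 common level, was 2.24 on day 7 in the family and 7.36 in the comparison runs. How far CpGs read together on 1 read add to it was not tested. Across the 195 loci the level on day 6 and the level on day 7 correlated at r = 0.156 (Spearman 0.163), and the level on day 0 and the share kept on days 6 and 7 at r = -0.050. These correlations describe loci that share libraries and depth.

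The loci read most deeply on their shallowest day show what a single locus looks like. The locus at chr3:98557295-98557380 (hg19), a reversed first spacing, read 86.5%, 88.3%, 76.2%, 79.4%, 31.4%, 51.6%, 32.9% and 16.7% from day 0 to day 7, with 31 to 35 reads on days 3 to 5. The level fell over the course but jumped between the shallow days. At chr6:158662183-158662268, also a reversed first spacing, the 8 levels were 86.4%, 85.9%, 76.9%, 67.7%, 59.4%, 22.6%, 29.7% and 23.2%. Of the second spacing, the locus at chr2:204071710-204071780 read 85.7%, 85.4%, 77.6%, 62.1%, 32.4%, 27.3%, 27.0% and 20.5%, a fall on every day. The other 3 loci of this kind, at chr3:58276485-58276555, chr7:64316417-64316502 and chr9:95594145-95594230, ended at 26.2%, 24.2% and 19.0% on day 7. Genes at these positions are left unnamed because no hg19 annotation was used here.

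The 4 loci that kept most were no group apart from the rest. The highest share, 38.4%, belonged to chr4:153788067-153788137, a second spacing that started low: it read 76.0%, 77.6%, 76.5%, 53.3%, 0%, 25%, 31.5% and 27.5% from day 0 to day 7. The 0 on day 4 rests on 11 reads summed over the CpGs of the run and allows up to 27.3% if reads are independent. The 25% on day 5 is 4 of 16 such reads. At chr1:237832993-237833078, a first spacing, 36.3% was kept, and the levels of days 6 and 7 were 32.0% and 31.2%. At chr6:35351335-35351405, a second spacing, 35.9% was kept, with 31.4% and 33.0%, and at chr8:9515555-9515640, a first spacing, 35.5%, with 32.5% and 27.7%. The Wilson intervals of their pooled days 6 and 7 ran from 25.8 to 35.4% in all, over 500 to 880 reads each.

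At the other end, chr15:35947958-35948043, a first spacing, stood apart. It read 81.9%, 74.2%, 68.7%, 47.1%, 27.3%, 20%, 18.4% and 10.3%, and kept 18.05% on days 6 and 7 (14.2%, Wilson 95% interval 12.3 to 16.4%). It was also read more on the late days, with 523 and 561 reads on days 6 and 7 against 271 on day 0, while the median locus had 276 and 286 against 309. Whether those reads belong to 1 locus was not tested. The next lowest loci, at chr5:53677100-53677170, chr3:48097222-48097307 and chr13:46059851-46059936, kept 21.96%, 22.2% and 22.5%. The first of these is a second spacing, the other 2 are first spacings, and chr3:48097222-48097307 is 1 of the 10 loci short of reads, with 7 on day 4.

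By place in the run, the fourth CpG of the first spacing stood out. This CpG follows the 40 bp gap. Over the 81 runs with a read at all 6 CpGs in every library, it read 86.9%, 84.7%, 78.1%, 68.3%, 57.6%, 40.8%, 34.9% and 27.0% from day 0 to day 7. The mean of the other 5 places was 87.6%, 84.1%, 75.7%, 58.0%, 42.1%, 37.0%, 26.7% and 21.9%. Place 4 was thus level with this mean on day 0, though below place 5 (92.2%). It stood above the mean on the 7 later days, by most on day 4, and kept 31.0% of its start on day 7. Over all 169 loci a CpG at place 4 had a median of only 4, 3 and 3 reads on days 3, 4 and 5.

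The other places kept less. Place 1 went from 91.1% to 21.2%, place 2 from 85.0% to 23.7%, place 3 from 86.9% to 21.8%, place 5 from 92.2% to 21.8% and place 6 from 82.5% to 20.9% between days 0 and 7. Over all 169 loci, the pooled reads of place 4 on day 7 were 28.5% methylated (Wilson 95% interval 27.4 to 29.5%, 7021 reads), and those of the other 5 places lay between 20.8 and 23.9%. Locus by locus, place 4 stood above its 5 neighbours on days 6 and 7 at 146 of 169 loci, by a median of 6.95 points. In comparison runs of 84 bp the fourth CpG, counted from either end, was above the rest in 40.6%.

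The course of places was tested as a slope over days of the log ratio of a place to the other 5, which asks for a steady drift. The test was an exact two-sided permutation in which the days took all 40320 orders, with Benjamini-Hochberg adjustment over 13 slopes, the 12 places and the difference between spacings. For place 4 it was 0.0377 ± 0.0133 per day (exact permutation p = 0.037, adjusted 0.24), and for place 3 -0.0133 ± 0.0040 (exact permutation p = 0.016, adjusted 0.21). None of the 12 places of the 2 spacings passed at an adjusted p below 0.05 and 2 had an unadjusted p below 0.05 by this permutation test. In the 5 deep libraries alone, place 4 of the first spacing gave 0.0414 ± 0.0052 over 169 loci (exact permutation p = 0.025, adjusted 0.11). Places 1 and 4 of the second came nearest there (exact permutation p = 0.0083, adjusted 0.054, at each), and 0 of 12 places passed. That p is the smallest that the orders of 5 days allow. After adjustment over 13 slopes a single place at it cannot pass, so no conclusion is drawn from the 0. For place 4 of the first spacing, the slope at loci as written was 0.0390 (exact permutation p = 0.043, adjusted 0.49). At reversed loci it was 0.0365 (exact permutation p = 0.032, adjusted 0.41). Both sets of loci were read in the same 8 libraries, so these slopes share any deviation of a library and are not independent repeats. Place 4 had also been singled out over the runs of both orientations. Without day 7, place 3 passed (-0.0179, exact permutation p = 0.0032, adjusted 0.041). Since each place is set against the other 5, a rise at one place lowers the others.

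**Figure D3:**
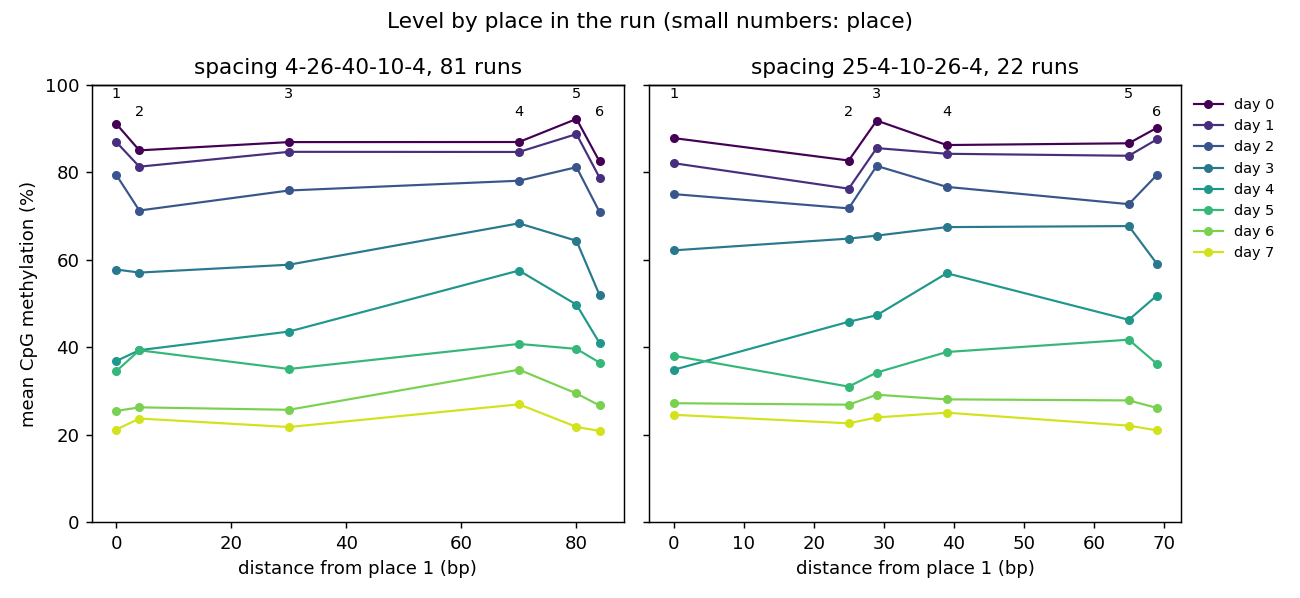
Mean CpG methylation (%, vertical axis) at the 6 places of a run, by distance from place 1 in bp (horizontal axis), for the 81 runs of the first spacing (left) and the 22 runs of the second (right) with a read at every CpG in every library, 1 line per day. In the first spacing place 4, at 70 bp, is level with its neighbours on day 0 and highest on day 7, at 27.0%.

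Places also differed in how they were read. Places 1 and 5 of the first spacing had medians of 75 and 80 reads on day 0, and the other 4 places 32 to 42. The strand given in the files followed the place: at loci as written, on days 0 and 7, place 4 was always listed on the minus strand and the 5 other places on the plus strand. At reversed loci place 4 was on the plus strand and places 2, 3 and 6 on the minus strand. Places 1 and 5 were on the plus strand at reversed loci too. The level of place 4 therefore comes from the strand opposite to that of places 2, 3 and 6. The part of strand in the higher level of place 4 was not tested. Nor was it tested whether places 1 and 5, listed on the plus strand in either direction, pool reads of both strands.

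In the second spacing the spread between places was smaller. Over 22 runs, day 7 levels were 24.6%, 22.6%, 23.96%, 25.1%, 22.1% and 21.0% for places 1 to 6. Locus by locus on days 6 and 7, place 4 stood above its neighbours at 24 of 36 loci, by a median of 2.15 points, and place 3 at 23 of 36, by 1.72 points. In comparison runs of 69 bp the fourth CpG was above the rest in 48.6%. The slope of place 4 was 0.0141 ± 0.0116 per day (exact permutation p = 0.29, adjusted 0.62).

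With the 2 spacings aligned as above, 5 pairs of CpGs take the same position, and the levels of 4 of these pairs lay nearer each other on day 7 than those of the fifth. Place 1 of the first spacing and place 6 of the second stood at 20.8% each on day 7, over pooled reads. Place 2 and place 5 stood at 23.9% and 22.9%, place 5 and place 3 at 22.5% and 23.6%, and place 6 and place 2 at 22.5% and 21.9%. The Wilson intervals overlapped in each of these 4 pairs. Median reads on day 0 were near each other too, at 75 and 68.5, 35 and 35, 80 and 80.5, and 37 and 43. In the fifth pair, the CpG 25 bp after place 6 of the first spacing and place 1 of the second, the levels were 88.0% and 83.0% on day 0, and 21.5% (20.3 to 22.8%) and 24.6% (22.5 to 26.8%) on day 7. The day 7 intervals of the fifth pair overlapped as well. Place 4 of the second spacing takes the position where the first has the 40 bp gap between places 3 and 4. Its 25.3% (23.6 to 27.1%) lay between the 21.5% of place 3 (20.3 to 22.7%) and the 28.5% of place 4 (27.4 to 29.5%). Its median on day 0 was 66 reads, against 32 and 42 at those 2 places. On day 0 it was listed on the plus strand in both orientations. The part of read number and strand in its level was not tested. The alignment and these pairs were chosen after the levels had been seen.

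The commonest next CpG on either side of the first spacing ended lower than those in it. The spacing was chosen for the late level of its own CpGs, so this contrast describes that choice too. CpGs that lay 4 bp before place 1, at 127 loci of the first spacing, went from 87.2% on day 0 to 16.1% on day 7 (Wilson 95% interval 15.1 to 17.2%). Those 7 bp past place 6, at 146 loci, went from 86.9% to 15.1% (14.1 to 16.2%). Both day 7 levels lie below the 20.8 to 28.5% of the 6 places in the run. Around the second spacing only 1 side was lower. The CpG 14 bp before place 1, at 27 loci, ended at 17.4% (14.9 to 20.2%), and the CpG 10 bp past place 6, also at 27 loci, at 22.6% (20.2 to 25.2%), within the 20.8 to 25.3% of that run. In all, 25 flanking positions held a CpG in at least 25% of the loci of the first spacing. They kept a median of 21.7% of their day 0 level on day 7, and the 6 places of the run 25.8%.

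A flanking position that the rule did not use kept more than any place of the run. The CpG 112 bp before place 1, present at 112 loci, read 77.5%, 72.1%, 66.1%, 49.2%, 41.1%, 36.4%, 30.4% and 27.1% from day 0 to day 7 over pooled reads. It kept 34.98% of its start, against 32.5% at place 4, and was picked out after its values were seen. The CpGs 4 bp upstream and 8 bp downstream of it, which lie 116 and 104 bp before place 1, kept 22.04% and 23.6%.

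Starting levels differed with read number. Of the 31 positions with a CpG at fixed distance, the 6 with a median of 50 or more reads on day 0 started at 90.7 to 92.1%, and the 25 with fewer reads at 77.4 to 90.4%. The share kept on day 7 had medians of 21.9% and 21.8% in these 2 classes. Around the second spacing, 9 positions with 50 or more reads started at 84.4 to 92.0% and 30 others at 63.3 to 91.5%.

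**Figure D4:**
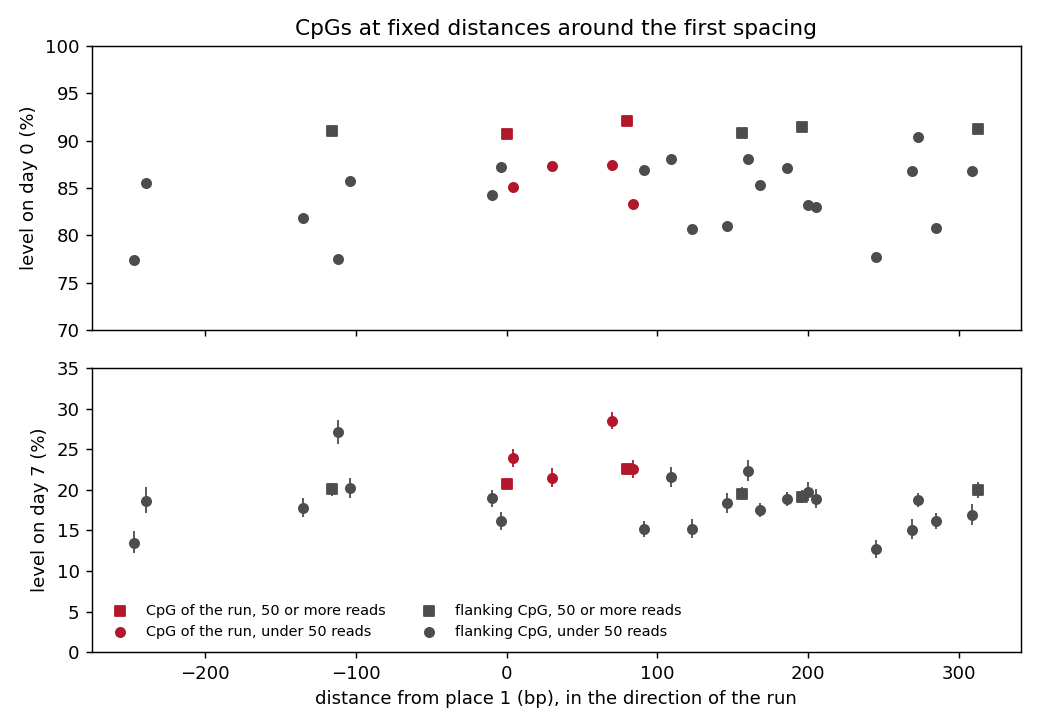
Pooled methylation level on day 0 (upper panel, axis from 70%) and day 7 (lower panel, bars are Wilson 95% intervals) at CpGs found in at least 25% of the 169 loci of the first spacing, by distance from place 1 in bp in the direction of the run. Squares mark positions with a median of 50 or more reads on day 0. On day 7 place 4 at 70 bp and the flanking CpG at -112 bp stand highest, at 28.5% and 27.1%.

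Farther out, the surroundings ended near the other autosomal CpGs. Member CpGs at 80% or more over days 0 and 1 with a read in every library (939 CpGs) kept 26.3% on day 7. CpGs of the same class 1 to 250 bp from a locus (3017 CpGs) kept 21.3%, those 251 to 1000 bp away 20.1%, those 1001 to 5000 bp away 19.96% and those 5001 to 20000 bp away 20.7%. The 1000937 other autosomal CpGs of that class kept 21.0%. Until day 2 the near CpGs stood with the members, at 77.6% within 250 bp and 77.4% in the members, against 74.1% over all others. Of 201 loci with enough reads, 190 kept more on days 6 and 7 than the CpGs 1001 to 20000 bp around them, with medians of 29.4% and 22.4%. Among comparison runs 54.3% kept more than their own surroundings.

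On day 7, runs just outside the rule stood between the family and the comparison runs. These are runs with exactly 1 of the 5 gaps off by 1 to 3 bp, and 157 of them had reads enough. They went from 87.3% on day 0 to 21.8% on day 7 and kept 24.9%. On days 6 and 7 they kept a median of 27.8% of the level of days 0 and 1. Runs of the first spacing that lacked 1 inner CpG, so that 2 gaps were joined, kept 25.9% on day 7 over 50 runs. Among these, the 16 without place 4 kept 25.2% and the 26 without place 3 kept 26.7%.

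The share kept was about the same whatever the number of matching flanking gaps. The 55 loci with all 8 flanking gaps kept a median of 29.3% on days 6 and 7, the 55 with 5 to 7 kept 29.6% and the 50 with at most 4 kept 29.3%. Across the 160 loci the number of matching gaps and the share kept correlated at r = 0.090.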

How the data were processed

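The deposited files, on genome build hg19 per the submitters' processing notes, list 1 CpG per line with methylated and total reads. The authors' deposited score equals 1000 times the methylated share in 100% of lines and was not used; other deposited values are read numbers. For the aligner, caller, filters and duplicates, the tools were not given in the sources used here. CpGs were joined by position, and starts count from 1. Runs were found by exact gaps between successive listed CpGs, so a CpG that no library listed changes a gap.

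A locus level is methylated over total reads of its 6 CpGs. Loci needed 10 reads in every library and were weighted equally. Slopes over days were least squares on natural logs. Exact permutation used all orders of the 8 days, or of the days kept where some were left out. Benjamini-Hochberg adjustment was over 13 slopes. For a share of 0 the upper limit is 3 reads over the total. Like the Wilson 95% intervals, it holds for counting error alone, since the labels name no molecular identifiers and reads may repeat a molecule. Alternatives changed the read minimum, the weighting, the libraries, the spacing, the orientation and the fold. Named loci are the 6 with most reads in their shallowest library and the 4 highest and 4 lowest shares kept with 50 or more reads early and late. The members and lists were chosen with earlier results of these data known. In 50 simulations at the real depths of the 81 runs of the first spacing, a slope of 0.04 was planted at place 4. It came back as 0.0414 and had an unadjusted permutation p below 0.05 in 94%. With no place difference planted, 0.667% of the unadjusted permutation p-values fell below 0.05, so the test was conservative in these simulations. A place that did not pass is thus not shown to be without a drift. Simulated reads were independent around a straight log course, without differences between libraries or loci. These shares therefore need not hold for the data or for adjusted p-values. Sequences of the loci were not used here. Python 3.11.15, numpy 2.4.6, pandas 2.3.3 and matplotlib 3.10.9 were used.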

Additional observations from a re-analysis of the deposited data

Results flagged for a closer look

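Methylation was also read at runs of the same 2 spacings on the X chromosome, which lie outside the rule because it takes autosomes only, and these are listed because no comparison above uses them. The 13 runs there went from 88.9% on day 0 to 22.9% on day 7 over pooled reads (Wilson 95% interval 21.6 to 24.4%, 3499 reads), beside 23.04% at the autosomal loci. Comparison runs on the X chromosome were not made, so nothing is said of whether these runs kept more than their surroundings.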

How the results depend on the processing

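Each day is 1 library of a single course, so no value has a biological error, and days 3 to 5 rest on about 24 reads per locus. No paired analysis was possible because each day has a single library, so no day offers a second one to pair. A minimum of 5 reads at every CpG was not run for places, since no run met it. With the second spacing alone, 26.5% of the day 0 level was kept on day 7. Leaving out 1 day at a time, the family's log slope ran from -0.230 (without day 0) to -0.203. The count of loci at 1.5 times the comparison median was 3 of 75 with at least 20 reads (4%, against 3.87% of comparison runs), 1 of 195 on days 3 to 5 (0.513% against 1.71%) and 0 of 195 at 2 times the median (0% against 0.148%). The number of places past the threshold ran from 0 to 1 when a day was left out, the 1 being place 3 of the first spacing without day 7. The difference in log slope between spacings changed sign with every read weighted equally (-0.000763), in the 5 deep libraries (-0.00186) and at loci as written (-0.00142), and ran from -0.0015 to 0.00297 with 1 day left out, below 0 without day 3 (-0.000798), 5 or 6 (-0.00076). Slopes of single places near 0 changed sign too. With reads weighted equally, places 2 and 5 of the second spacing gave -0.000203 and -0.000853. At loci as written, place 6 of the first spacing gave -0.00276 and places 2, 4 and 5 of the second -0.00559, -0.00408 and -0.0016, and at reversed loci place 1 of the second gave -0.0182. With 1 day left out, slopes of the first spacing ran from -0.000748 to 0.0138 at place 2, -0.0146 to 0.00108 at place 5 and -0.00119 to 0.00393 at place 6, and those of the second from -0.00961 to 0.0125 at place 1, -0.00135 to 0.0107 at place 2, -0.01004 to 0.000775 at place 3 and -0.00774 to 0.0145 at place 5. The cause was not tested.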
